A study of Mus musculus with 8 samples.

Results

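The genes described here are β-catenin (*Ctnnb1*), the TCF/LEF transcription factors that carry it to DNA (*Lef1*, *Tcf7*, *Tcf7l1* and *Tcf7l2*), scaffolds that mark it for destruction (*Apc* and *Axin2*) and inhibitors that WNT signalling switches on against itself (*Nkd1*, *Apcdd1* and *Notum*). They were chosen by name, and of these 10 genes 9 were measured on the arrays, among 21905 gene symbols tested in all. *Tcf7* has no transcript cluster under its symbol in the annotation used here, and its expression was not analysed. One genotype was sf1:Cre; Prkar1a Fl/Fl, called knockout, in which Cre from Sf1 regulatory regions inactivates both floxed alleles of *Prkar1a* in steroidogenic cells of the cortex from its inception. The other was wild-type littermates, and the sources do not say whether these carried the Cre or floxed alleles, so effects of Cre and of *Prkar1a* loss cannot be told apart. RNA came from whole adrenals of 4 knockout and 4 wild-type mice, all female and 6 weeks old on a mixed background, with 1 Affymetrix Mouse Gene 2.0 ST array per mouse. Capsule, medulla, vessels and any adhering fat are part of such samples and are not targets of this Cre, so the values are averages over the gland.

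In the absence of a WNT signal, β-catenin is phosphorylated in a complex built on APC and AXIN proteins and is degraded. When a WNT ligand engages its receptors, the complex is held back through Dishevelled, β-catenin enters the nucleus and TCF/LEF factors turn from repression to activation of their targets. *Axin2*, *Nkd1*, *Apcdd1*, *Notum* and *Lef1* are themselves such targets in many tissues, and all but *Lef1* then dampen the pathway. In the adrenal cortex β-catenin activity is highest in the zona glomerulosa, the outer zone that makes aldosterone. The arrays address whether the expression of these genes differs once PKA, the kinase that PRKAR1A restrains, is constitutively active.

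Promoter sequences were read to show what lies at the start sites of the genes studied, whether they fell or not. RefSeq (GRCm38.p6) held 13 windows for 7 of the genes, each of 300 bases, with 250 before and 50 after the start. *Tcf7*, which has no expression value here, is among the 7, and windows of *Apcdd1* and *Apc* were not used. Each was searched on both strands for the TCF/LEF core (CTTTG followed by 2 bases that are each A or T), for the cyclic AMP response element TGACGTCA and for its half-site TGACG, which the full element contains. The TCF/LEF core was present in 2 of the 13 windows, against 16.9% of all 32817 promoter windows of this length. One was an internal start of *Lef1*, where TACAAAG, the core on the other strand, began 147 bases before the start, and the other was the second start of *Tcf7l2*, where CTTTGTT began 14 bases before it. The full response element was in 0 of 13 windows (1.79% of all) and its half-site in 2, of *Ctnnb1* and *Tcf7l2* (20.8% of all). The outermost start of *Lef1*, its internal start with the core, and the single windows of *Axin2* and *Nkd1* are shown, since these genes fell. *Lef1* has 4 windows, and the others hold no TCF/LEF core, nor do those of *Axin2* and *Nkd1*. Capitals mark the TCF/LEF core. These letters are a description of the windows and do not show binding.
Lef1, outermost start, chr3:131110047-131110346, plus strand: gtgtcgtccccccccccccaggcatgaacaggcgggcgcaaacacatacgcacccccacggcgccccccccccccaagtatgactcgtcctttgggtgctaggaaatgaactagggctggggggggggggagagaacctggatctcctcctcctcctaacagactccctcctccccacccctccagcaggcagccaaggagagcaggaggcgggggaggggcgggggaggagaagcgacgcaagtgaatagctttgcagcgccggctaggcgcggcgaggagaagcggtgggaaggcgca
Lef1, internal start, chr3:131156044-131156343, plus strand: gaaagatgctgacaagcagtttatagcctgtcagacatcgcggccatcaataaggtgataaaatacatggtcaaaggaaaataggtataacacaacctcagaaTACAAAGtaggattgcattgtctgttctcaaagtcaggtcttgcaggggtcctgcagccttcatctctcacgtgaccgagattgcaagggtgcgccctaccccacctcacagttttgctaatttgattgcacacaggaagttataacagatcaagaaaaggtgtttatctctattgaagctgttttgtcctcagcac
Axin2, chr11:108920099-108920398, plus strand: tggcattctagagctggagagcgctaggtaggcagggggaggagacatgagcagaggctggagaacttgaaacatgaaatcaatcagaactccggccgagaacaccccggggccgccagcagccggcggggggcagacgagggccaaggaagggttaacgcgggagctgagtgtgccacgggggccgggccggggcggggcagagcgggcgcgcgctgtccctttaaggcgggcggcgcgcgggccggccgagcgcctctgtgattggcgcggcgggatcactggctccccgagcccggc
Nkd1, chr8:88527383-88527682, plus strand: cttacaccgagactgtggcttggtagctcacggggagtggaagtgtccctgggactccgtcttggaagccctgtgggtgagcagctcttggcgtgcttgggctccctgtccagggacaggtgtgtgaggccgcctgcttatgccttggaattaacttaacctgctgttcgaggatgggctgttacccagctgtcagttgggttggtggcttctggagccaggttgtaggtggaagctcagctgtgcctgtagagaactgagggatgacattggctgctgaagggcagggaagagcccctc

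Values per array are RMA values on the log2 scale as the authors normalized them, so a difference of 1 is a doubling of the signal. Differences are given as knockout minus wild-type with the standard error (SE) and adjusted p of limma, two-sided, with n = 4 arrays per genotype and p-values adjusted over all 22822 transcript clusters that carry 1 gene symbol. Array medians lay between 5.66 and 5.72, and arrays correlated with r between 0.990 and 0.995 within a genotype and between 0.978 and 0.984 across genotypes. *Prkar1a*, the targeted gene, had 6.92, 7.30, 7.35 and 7.19 in knockout arrays, against 8.83, 9.11, 9.04 and 8.70 in wild-type arrays, with every knockout array more than 1 log2 unit below every wild-type array. The arrays give no detection call. As a guide to background, 95% of 1107 olfactory receptor clusters, most of which an adrenal should not express, averaged below 5.23.

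In knockout adrenals 4 of the 9 measured genes fell and 2 rose. *Nkd1*, *Apcdd1*, *Lef1* and *Axin2* were lower, *Tcf7l1* and *Apc* were slightly higher, while no call was made for *Ctnnb1*, *Tcf7l2* or *Notum*. The same calls took in 6.17% of all 22822 clusters as lower and 7.35% as higher. In the 6 called genes the genotypes had separate ranges. In 4 genes the highest knockout array was below the lowest wild-type one, as in 8.95% of all clusters, and in 2 the order was the opposite, as in 2289 of 22822 clusters, and separate ranges in either direction were found for 19.0% of all clusters. The median difference over the 9 genes was -0.36, against -0.020 over all clusters. *Lef1* and *Axin2* are among the genes that the paper names as lower from these arrays, so their place in the count is not independent evidence. The paper also reports both as lower by RT–qPCR in other samples of this genotype, and LEF1 protein as lower in tissue sections.

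**Figure D1:**
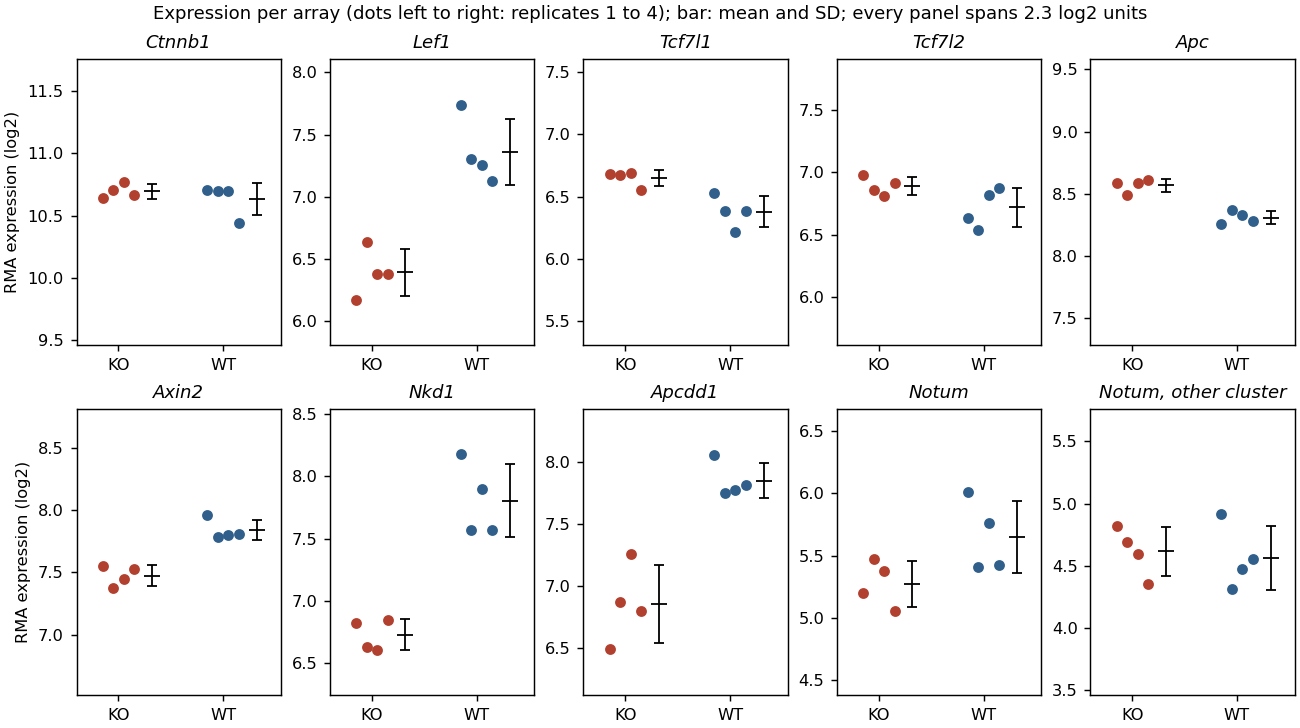
RMA expression (log2, vertical axis) of the 9 measured genes, and of the other cluster of Notum, in 4 knockout (KO) and 4 wild-type (WT) arrays, 1 dot per array with the mean and SD beside it. KO dots lie below all WT dots for Lef1, Axin2, Nkd1 and Apcdd1, above them for Tcf7l1 and Apc, and overlap with them elsewhere.

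*Ctnnb1*, which encodes β-catenin itself, had 10.64, 10.70, 10.77 and 10.67 in knockout arrays, against 10.71, 10.70, 10.70 and 10.44 in wild-type arrays. The genotypes overlapped, and wild-type replicate 4 was the single low array. The difference was 0.059 (SE 0.077, 95% interval -0.11 to 0.23, adjusted p = 0.70 from limma), and -0.006 without that array. The interval leaves room for a change of either sign of that size in the mRNA, and the arrays say nothing of the protein or its phosphorylation.

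Of the TCF/LEF factors measured, which leave out *Tcf7*, *Lef1* alone fell. *Lef1* had 6.18, 6.64, 6.38 and 6.38 in knockout arrays, against 7.74, 7.31, 7.26 and 7.13 in wild-type arrays. Every knockout array lay at least 0.49 below the lowest wild-type array, while wild-type replicate 1 stood highest. The difference was -0.96 (SE 0.14, 95% interval -1.27 to -0.66, 1.95-fold lower, adjusted p = 0.00094 from limma), and -0.84 without wild-type replicate 1.

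*Tcf7l1* encodes the family member best known as a repressor of WNT targets. It had 6.68, 6.67, 6.69 and 6.55 in knockout arrays, against 6.53, 6.38, 6.22 and 6.38 in wild-type arrays. The groups were separated by only 0.022, the distance from knockout replicate 4 to wild-type replicate 1. The difference was 0.27 (SE 0.078, 1.21-fold higher, adjusted p = 0.044 from limma), a call that most alternatives did not keep, among them 7 of the 8 settings that left out 1 array. *Tcf7l2*, a TCF factor that both represses and activates, had 6.98, 6.86, 6.81 and 6.91 in knockout arrays, against 6.64, 6.54, 6.82 and 6.87 in wild-type arrays. Wild-type replicates 3 and 4 lay within the knockout range, and the difference of 0.17 (SE 0.086, 95% interval -0.018 to 0.36, adjusted p = 0.24 from limma) did not pass.

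Whether *Lef1* changed by another amount than the other factors was tested within each array, as *Lef1* minus the mean of *Tcf7l1* and *Tcf7l2*. This log2 difference was -0.65, -0.13, -0.37 and -0.35 in knockout arrays, against 1.16, 0.84, 0.74 and 0.50 in wild-type arrays. Its sign turned in every knockout array, although levels of different genes cannot be ranked by probe signal and only the shift between genotypes is informative. The shift was -1.19, a 2.28-fold lower ratio (exact permutation test over arrays, two-sided, p = 0.029, the smallest that 4 against 4 arrays can give). The contrast was set with earlier results of these data known.

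**Figure D2:**
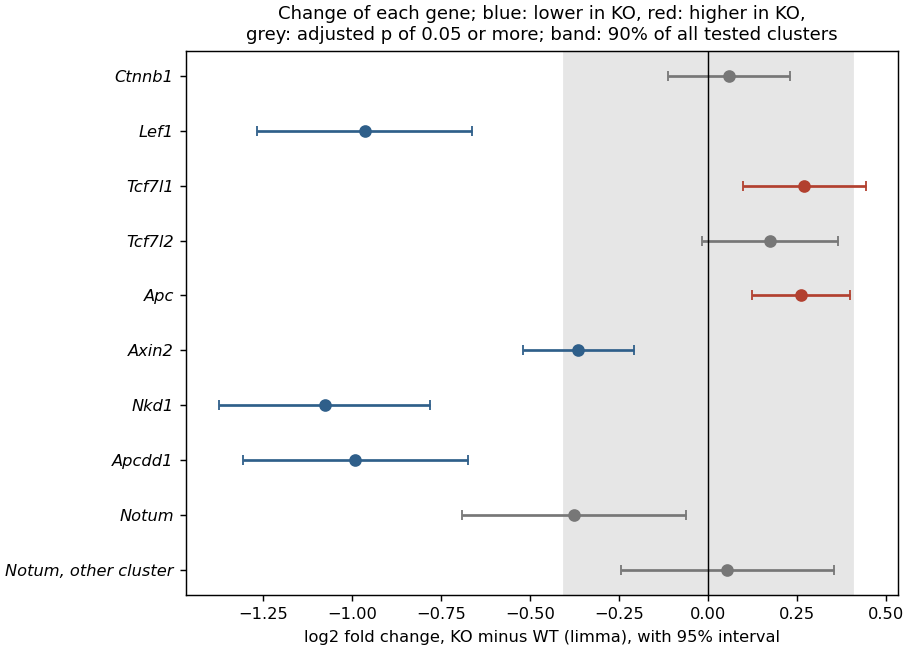
Log2 fold change of knockout (KO) minus wild-type (WT) with its 95% interval from limma (horizontal axis) for each gene, blue where lower in KO, red where higher in KO and grey where the adjusted p was 0.05 or more. The grey band holds the changes of 90% of all clusters tested, within 0.41 of 0, and the intervals of Lef1, Nkd1 and Apcdd1 lie wholly outside it.

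The scaffolds moved in opposite directions. *Apc*, the large scaffold of the destruction complex, had 8.59, 8.49, 8.59 and 8.61 in knockout arrays, against 8.26, 8.37, 8.33 and 8.28 in wild-type arrays. Its replicates were the tightest of the 9 genes, with an SD of 0.052 in knockout and 0.051 in wild-type arrays, and a gap of 0.12 separated the genotypes. The difference was small, 0.26 (SE 0.062, 1.20-fold higher, adjusted p = 0.019 from limma), and it missed the threshold without knockout replicate 3 (adjusted p = 0.053) or knockout replicate 4 (0.059).

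*Axin2*, the inducible scaffold that WNT signalling switches on as a brake, had 7.55, 7.37, 7.45 and 7.53 in knockout arrays, against 7.96, 7.79, 7.80 and 7.81 in wild-type arrays. Wild-type replicate 1 was again highest, and the gap to the nearest knockout array was 0.24. The difference was -0.36 (SE 0.071, 95% interval -0.52 to -0.21, 1.29-fold lower, adjusted p = 0.0062 from limma). This was the smallest of the 4 decreases, and its interval did not meet those of *Lef1*, *Nkd1* or *Apcdd1*, a comparison that was not tested as a difference between genes.

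Among the feedback inhibitors, *Nkd1*, which binds Dishevelled in the cytoplasm, had the largest decrease of the 9 genes and was the only one whose fold change passed the cut-off of 1 on the log2 scale in the methods. It had 6.82, 6.63, 6.61 and 6.84 in knockout arrays, against 8.18, 7.57, 7.90 and 7.57 in wild-type arrays. Knockout arrays lay close together (SD 0.12), wild-type arrays were more spread (SD 0.29), and the gap between genotypes was 0.72, the widest of the 9 genes. The difference was -1.08 (SE 0.13, 95% interval -1.37 to -0.78, 2.11-fold lower, adjusted p = 0.00045 from limma), and -0.95 without wild-type replicate 1.

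*Apcdd1*, a membrane glycoprotein that inhibits WNT signalling at the cell surface, had 6.49, 6.87, 7.26 and 6.80 in knockout arrays, against 8.05, 7.75, 7.77 and 7.81 in wild-type arrays. Here the spread was in the knockout arrays (SD 0.31, against 0.14 in wild-type arrays), with replicate 1 lowest and replicate 3 highest, and the groups remained 0.49 apart. The difference was -0.99 (SE 0.14, 95% interval -1.31 to -0.67, 1.99-fold lower, adjusted p = 0.0011 from limma), and -0.87 without knockout replicate 1. With a test per gene that allows unequal variances the adjusted p was 0.062.

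*Notum* encodes a secreted enzyme that removes the lipid of WNT ligands. Its brighter transcript cluster had 5.20, 5.47, 5.38 and 5.05 in knockout arrays, against 6.01, 5.41, 5.76 and 5.42 in wild-type arrays. Knockout replicates 2 and 3 reached into or near the wild-type range, and the difference of -0.38 (SE 0.14, 95% interval -0.69 to -0.062, adjusted p = 0.12 from limma) did not pass. The other cluster of *Notum* had 4.82, 4.70, 4.60 and 4.36 in knockout arrays, against 4.91, 4.31, 4.47 and 4.55 in wild-type arrays, with a difference of 0.054 (SE 0.13). The second cluster averaged below the level under which 95% of olfactory receptor clusters lay and the first close to it, so these signals limit what can be said of *Notum*.

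Wild-type replicate 1 was the highest wild-type array in 7 of the 9 genes, whichever way they moved. These were the 4 genes that fell, *Notum* (in both clusters), *Ctnnb1*, which was not called, and *Tcf7l1*, which was higher in knockout arrays. In the genes that fell it stood above the wild-type mean by 0.38 above the wild-type mean in *Lef1*, 0.38 in *Nkd1*, 0.21 in *Apcdd1* and 0.12 in *Axin2*, while the lowest wild-type array was replicate 2 in 2 of them and replicate 4 in 2. Each knockout array was the highest knockout array in 1 of the 4 genes. Without wild-type replicate 1 the same 4 genes were called lower.

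**Figure D3:**
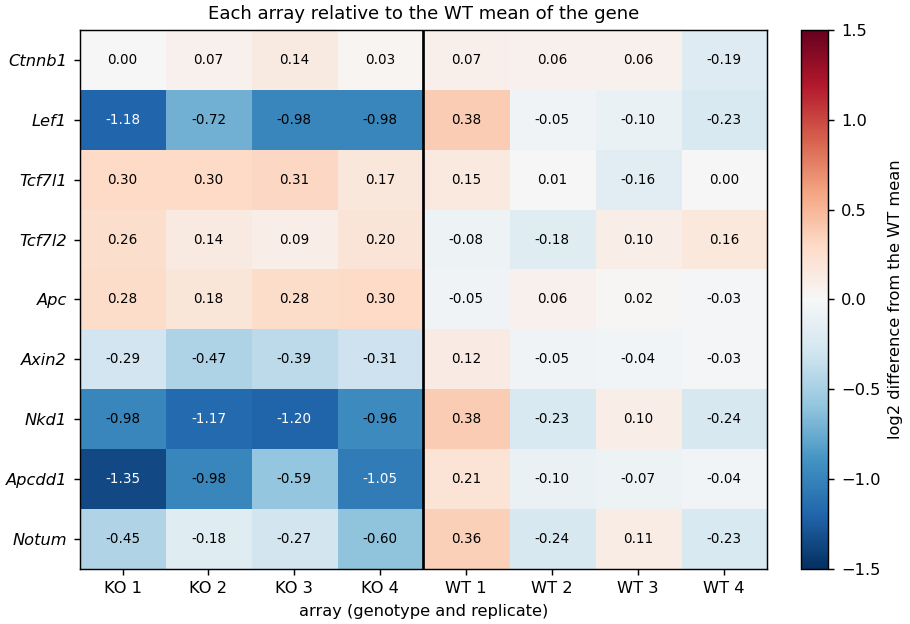
Log2 difference of each array from the wild-type (WT) mean of the gene, with knockout (KO) replicates 1 to 4 left of the line and WT replicates 1 to 4 right of it, red above and blue below that mean. KO values of Apcdd1 run from -1.35 to -0.59, those of Axin2 from -0.47 to -0.29, and WT replicate 1 is the highest WT array in 7 of the 9 rows.

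Markers of other compartments were read on the same arrays, since in RNA of a whole gland fewer cells of a type and less RNA per cell cannot be told apart. All 8 zona glomerulosa markers fell (6.17% of all clusters), among them *Vsnl1* (-4.75), *Cyp11b2*, aldosterone synthase (-4.30), and *Agtr1b*, an angiotensin II receptor (-2.09). *Vsnl1* averaged 5.05 in knockout arrays, below the background guide of 5.23, so its difference is uncertain in size. The paper already reports *Vsnl1*, *Cyp11b2*, *Agtr1b*, *Dab2*, *Atp2b3* and *Wnt4* as downregulated in the same microarray comparison. Most of this list could therefore be foreseen to fall. The mean of the 8 markers per array lay between 7.02 and 7.39 in knockout arrays, against 9.42 and 9.79 in wild-type arrays. Wild-type replicate 1 was the highest wild-type array in this list and in 6 of all 11 marker lists. The zona glomerulosa list was lower in knockout arrays, as were the 4 WNT genes that fell. Within the knockout arrays the order was not shared. Replicate 1, highest for this list (7.39), was lowest for *Lef1* and *Apcdd1* and highest for *Axin2*. The part of this list in the decrease of the 4 genes was not tested. Markers of the zona fasciculata, the inner zone that makes glucocorticoids, had a median difference of 0.091, with 3 of 7 higher and 1 lower (7.35% and 6.17% of all clusters). The median was that of *Star*, which averaged 13.23 in knockout and 13.14 in wild-type arrays. Array maxima lay between 13.37 and 13.44, and a rise so near the top may not show. *Akr1b7* had no cluster under its symbol. The paper reports *Star* and *Akr1b7* mRNA as higher in this genotype by RT–qPCR.

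*Lef1* is also strongly expressed by T lymphocytes. None of 6 measured T cell markers was called, the highest value on any array was 5.28, and their mean per array was 4.50 to 4.85 in knockout arrays, against 4.61 to 4.84 in wild-type arrays, at the background level given above. Adipocyte markers were lower in 5 of 6 genes (6.17% of all clusters), among them *Retn*, resistin (-2.43), *Car3*, a carbonic anhydrase (-1.98), and *Adipoq*, adiponectin (-1.85). The sixth, *Lep*, leptin, differed by 1.05 and did not pass, and was named after its value was seen. Their mean per array was 7.42, 8.37, 9.49 and 8.49 in knockout arrays, against 8.82, 9.91, 9.64 and 9.996 in wild-type arrays. Knockout replicate 1 was lowest and knockout replicate 3 highest of the knockout arrays, as in *Apcdd1*, whereas wild-type replicate 1 was the lowest wild-type array here and the highest in *Apcdd1*. With this mean as a covariate in limma, chosen after its values were seen, *Apcdd1* differed by -0.77, *Nkd1* by -1.33, *Lef1* by -1.05 and *Axin2* by -0.45, all 4 still called, while *Tcf7l1* (0.23, SE 0.11, adjusted p = 0.30) and *Apc* (0.28, SE 0.090, adjusted p = 0.10) were not. The differences of *Tcf7l1* and *Apc* were close to those without the covariate, and their SEs were larger. The covariate itself followed the genotype, so it cannot separate fat from genotype.

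Capsule and fibroblast markers changed in both directions. *Lum*, lumican, was higher (1.25), *Rspo3*, a capsular enhancer of WNT signalling, was lower (-0.85), and *Col3a1*, a collagen, differed by 0.58 and did not pass. *Dcn*, decorin, named after its value was seen, was higher (0.56), and the other 5 of 9 did not pass. Their mean per array was 7.98, 8.67, 8.58 and 8.60 in knockout arrays, against 8.28, 8.11, 8.35 and 8.06 in wild-type arrays, so knockout replicate 1, the lowest array for *Apcdd1*, stood below every other array. The part of these markers in the decrease of *Apcdd1* was not tested. None of 4 Schwann and glial or 5 kidney markers was called, against 13.5% of all clusters in either direction. Higher were 1 of 7 chromaffin, 1 of 6 macrophage and 3 of 6 endothelial markers, against 7.35% of all clusters. Of the X-zone markers 2 of 3 were lower, against 6.17% of all clusters. The X-zone markers, named after their values were seen, were *Pik3c2g* (-0.93), *Thrb* (-0.90) and *Akr1c18* (0.030, SE 0.077), the last not called. *Pik3c2g* averaged 5.13 in knockout arrays, below the background guide of 5.23, so its difference is uncertain in size. *Akr1c18* averaged 12.98 in knockout and 12.95 in wild-type arrays, near the array maxima given above, where a rise may not show. The paper reports an outward expansion of fetal-like cells in this genotype, seen by staining of the enzyme that *Akr1c18* encodes. Whether the X-zone changed in size was not tested on these arrays.

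**Figure D4:**
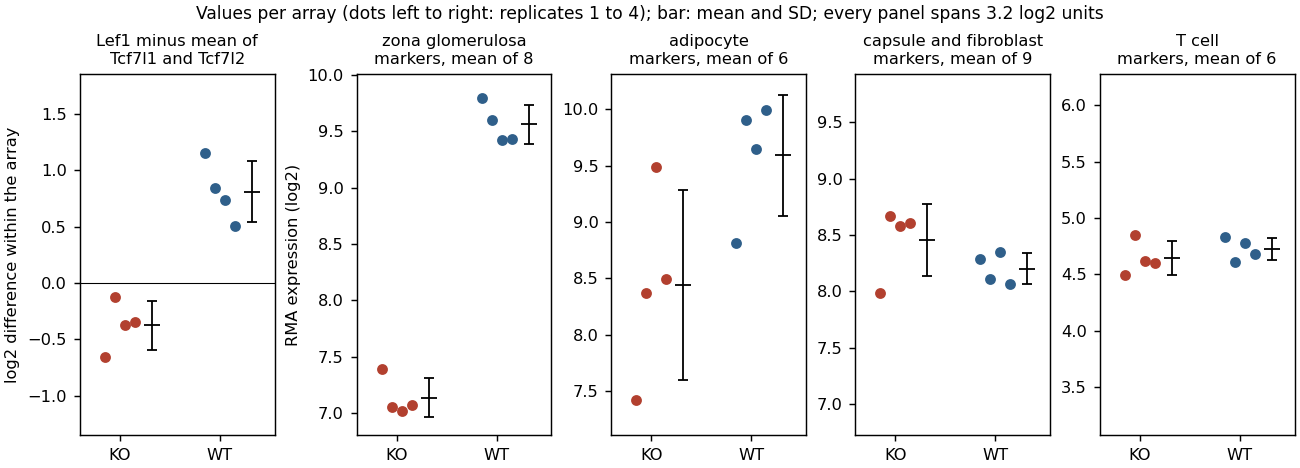
Left, the log2 difference of Lef1 minus the mean of Tcf7l1 and Tcf7l2 within each array, and right, the mean RMA expression (log2) of 4 marker lists, in knockout (KO) and wild-type (WT) arrays, 1 dot per array with mean and SD. The Lef1 difference and the zona glomerulosa markers separate the genotypes, the adipocyte and the capsule and fibroblast markers overlap, and the T cell markers lie between 4.50 and 4.85 in both.

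The rest of the pathway was read from 5 lists of genes. Of 97 measured genes 12 fell and 9 rose (6.17% and 7.35% of all clusters tested), and their median difference was -0.024, close to the -0.020 of all clusters. The largest decrease was of *Cdh2*, N-cadherin, the adhesion protein that binds β-catenin at cell junctions. *Cdh2* had 8.77, 8.29, 8.24 and 8.45 in knockout arrays, against 10.22, 10.07, 10.10 and 9.999 in wild-type arrays. The difference was -1.66 (SE 0.11, adjusted p = 1.1e-05 from limma), with more than 1 log2 unit between the groups. Of the other junctional genes only *Ctnna2*, a neuronal α-catenin, passed the test, with 5.70, 6.25, 5.40 and 6.13 in knockout arrays, against 4.97, 5.01, 5.04 and 4.98 in wild-type arrays, a rise of 0.87 (SE 0.16) whose size is uncertain, since the wild-type arrays lay below the background guide of 5.23. *Jup*, plakoglobin, the closest relative of β-catenin, named after its value was seen, had a difference of 0.078 (SE 0.080).

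Of 19 other genes of the destruction complex 0 fell and 2 rose, against 13.5% of all clusters called in either direction. They were *Ppp2r5b*, a regulatory subunit of protein phosphatase 2A (0.42, SE 0.097), and *Amer2*, a membrane partner of APC (0.32, SE 0.078). *Amer2* averaged 5.48 in knockout arrays and 5.16 in wild-type arrays, the second of which lies below the background guide of 5.23, so its difference is uncertain in size. The largest difference in this list was that of *Ppp2r5a*, another subunit of the phosphatase, named after its value was seen, at -0.50 (SE 0.17, adjusted p = 0.087 from limma), which did not pass. *Ppp2r5a* had 10.32, 10.31, 10.45 and 10.29 in knockout arrays, against 10.22, 11.04, 11.10 and 11.02 in wild-type arrays. Wild-type replicate 1 lay below every knockout array and the other wild-type arrays above them all. Of the kinases that phosphorylate β-catenin, named after their values were seen, *Gsk3b* differed by -0.040 (SE 0.075) and *Csnk1a1* by -0.024 (SE 0.069). Of 17 genes of Dishevelled and its regulators 1 fell and 0 rose, against 6.17% and 7.35% of all clusters, so the count was near that share. It was *Dixdc1*, a DIX domain protein that acts with Dishevelled and AXIN (-0.36, SE 0.068). *Dixdc1* averaged 5.27 in knockout arrays, close to the background guide of 5.23, so its difference is uncertain in size.

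Of 24 nuclear cofactors and corepressors 5 fell and 1 rose, against 6.17% and 7.35% of all clusters tested. *Hipk2*, a kinase that modifies transcription factors, fell by 0.55 (SE 0.096), *Tle4*, a Groucho corepressor that binds TCF factors, fell by 0.50 (SE 0.079), and *Bcl9l*, which links β-catenin to Pygopus, fell by 0.50 (SE 0.061). *Bcl9l* was among the most even of these genes, with 6.77, 6.81, 6.79 and 6.79 in knockout arrays, against 7.29, 7.25, 7.24 and 7.37 in wild-type arrays. *Tle2* (-0.40) and *Tbl1xr1* (-0.30), chosen after their values were seen, are the other 2 that fell. The gene that rose, *Ctnnbip1*, encodes ICAT, a small protein that blocks the binding of β-catenin to TCF factors. *Ctnnbip1* had 7.48, 7.19, 7.37 and 7.45 in knockout arrays, against 7.0, 6.91, 6.93 and 6.93 in wild-type arrays, a rise of 0.43 (SE 0.076, adjusted p = 0.0035 from limma) without overlap.

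Other genes known as β-catenin targets in various tissues were called in both directions, with 5 of 25 lower and 5 higher (6.17% and 7.35% of all clusters). Calls in both directions depended on the test. Over all 97 pathway genes, the 12 lower and 9 higher became 5 lower and 0 higher with unequal variances. With the adipocyte mean as a covariate, 9 were lower and 1 higher. *Prox1*, a homeodomain transcription factor, had 7.59, 7.49, 7.16 and 7.61 in knockout arrays, against 8.68, 8.80, 8.99 and 8.62 in wild-type arrays, and fell by 1.31 (SE 0.12). *Fgf9*, a growth factor, fell by 1.16 (SE 0.16). *Cd44*, a hyaluronan receptor, rose by 0.95 (SE 0.15), and *Gja1*, the gap junction protein connexin 43, rose by 0.81 (SE 0.17). The other 6 that passed, chosen after their values were seen, were *Myc* (-0.76), *Fgf20* (-0.65) and *Tnfrsf19* (-0.55), which were lower, and *Jun* (0.72), *Sox9* (0.43) and *Ppard* (0.42), which were higher. *Fgf20* averaged 4.59 in knockout arrays and 5.24 in wild-type arrays, below and at the background guide of 5.23, so its difference is uncertain in size. Many of these genes also answer to other pathways, and whether they answer to β-catenin in the adrenal was not measured here.

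**Figure D5:**
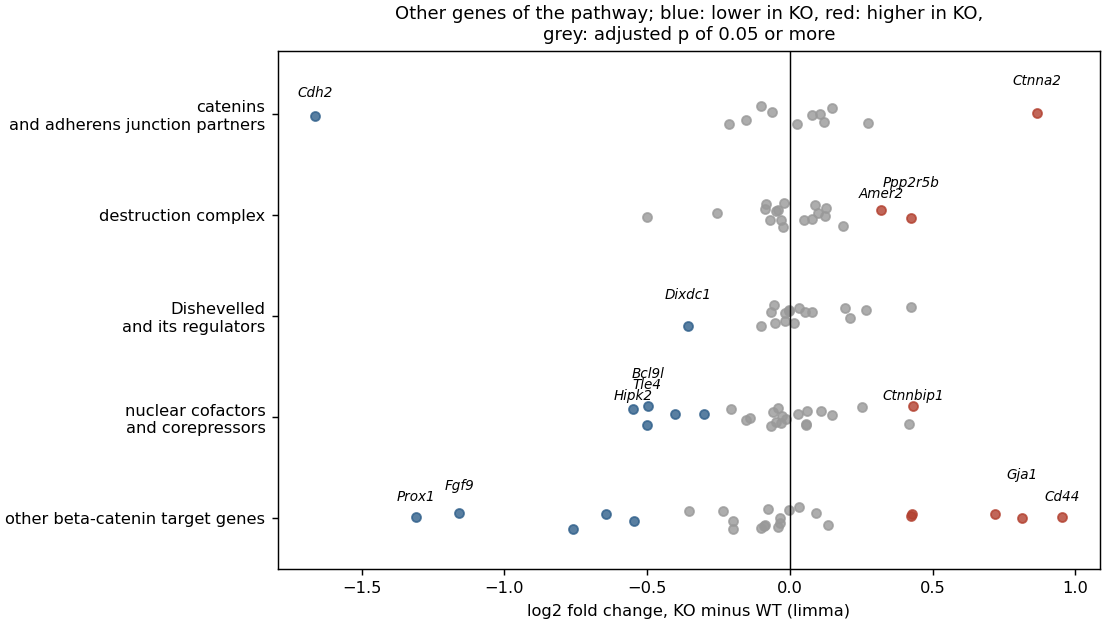
Log2 fold change of knockout (KO) minus wild-type (WT) from limma (horizontal axis) of the 97 other genes of the pathway in 5 lists (vertical axis), blue where lower in KO, red where higher in KO and grey where the adjusted p was 0.05 or more. Cdh2 lies farthest left at -1.66 and Cd44 farthest right at 0.95, and most genes of the destruction complex and of Dishevelled lie near 0.

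Genes whose values followed those of the 4 decreased genes most closely were found by the root mean square difference over the 8 arrays, after each gene was centred on its wild-type mean, among 17207 symbols. Arrays share the genotype difference and their RNA, so this distance is a description. Nearest to *Lef1* were *Kif1a* (0.075 log2 units), *Ndn* (0.10) and *Nt5c1a* (0.11). Nearest to *Axin2* were *Fbxo25* (0.048), *Inpp5k* (0.049) and *Tmem159* (0.052). *Nkd1* was followed most closely by *Sulf1* (0.10), *Dbp* (0.15) and *Scrn1* (0.15). For *Apcdd1* the nearest gene was *Rspo3* (0.14), followed by *Slc27a3* (0.165) and *Fxyd6* (0.166). None of the 4 had another of the 9 measured genes among its 3 nearest.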

How the data were processed

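Total RNA of whole adrenals from 4 knockout and 4 wild-type mice was labelled and hybridised to Affymetrix Mouse Gene 2.0 ST arrays, 1 per mouse. The deposited values are on the log2 scale: the authors normalized them by RMA with the Affy package for R, version not given in the sources used here. RMA subtracts background, gives each array one common distribution and combines the probes of a transcript cluster, which compresses differences of dim clusters and hides a change of total RNA. Another table, with fold changes and adjusted p-values from the study's own comparison, was left unused. The number of arrays limits the precision.

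Gene symbols came from the platform annotation. Of 28067 clusters, 22822 carried 1 symbol and were tested, 1703 carried several and 3542 had none here. The cluster with the highest mean stood for a gene. Genotypes were compared by moderated linear models without covariates (R 4.3.3, package limma 3.58.1, two-sided), p-values were adjusted after Benjamini-Hochberg over all 22822 clusters, and a call required an adjusted p under 0.05. A *t*-test per gene, the test of the study's methods, was run as an alternative. Other tables used Python 3.11.15 and pandas 2.3.3. The fit was tested on simulated data with known changes. The genes, lists and tests were chosen with earlier results of these data known. Besides the genes studied, the text names up to 4 called genes of each pathway list by size of change, the 3 nearest profiles of 4 genes, and markers, and says where a gene was chosen otherwise. The *Lef1* contrast was planned against 3 factors and used 2, since *Tcf7* was not measured. Of 102 pathway genes, 97 were matched, by symbol or gene ID.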

Additional observations from a re-analysis of the deposited data

Results flagged for a closer look

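A sample standing apart within its genotype was looked for by the gap to its nearest neighbour over the range of the 4 arrays, in 72 groups of 4 arrays, and 5 were found; chance alone picks about 1 in 20. *Ctnnb1* in wild-type replicate 4 (10.44) lay below the other wild-type arrays, *Tcf7l1* in knockout replicate 4 (6.55) below the other knockout arrays, and *Axin2* in wild-type replicate 1 (7.96) above the other wild-type arrays. Without these arrays the differences were -0.006 for *Ctnnb1*, 0.30 for *Tcf7l1* (adjusted p = 0.053 from limma) and -0.32 for *Axin2*. The mean of the zona glomerulosa markers in knockout replicate 1 (7.39) lay above the other knockout arrays, and the mean of the capsule and fibroblast markers in the same array (7.98) lay below them. Without knockout replicate 1, *Apcdd1* differed by -0.87 and *Lef1* by -0.89.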

How the results depend on the processing

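*Lef1*, *Axin2* and *Nkd1* were called lower under all 18 alternatives, with differences of -1.05 to -0.84, -0.45 to -0.32 and -1.33 to -0.95 and adjusted p-values up to 0.037, 0.028 and 0.048, and *Apcdd1* under all but the test with unequal variances. The count of 4 lower genes was kept when any array was left out (4 to 4), and with the added cut-off of 1 on the log2 scale 1 gene was lower and 0 higher. The count of higher genes, 2, was 1 with the methods' *t*-test with equal variances, 1 with unequal variances, 1 with an intensity trend and robust variance, 1 after repeated quantile normalization, 0 with the adipocyte mean as a covariate, and 0 to 2 with each array left out. *Tcf7l1* lost its call in 13 and *Apc* in 4 of 18 alternatives. *Ctnnb1* changed sign without wild-type replicate 4 (-0.006, with 0.083 as the highest value with 1 array left out), and *Notum* with its other cluster (0.054).

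Over all clusters, 920 were lower with the methods' *t*-test with equal variances, 492 lower and 710 higher with unequal variances, and 731 lower and 1038 higher with the covariate, against 1407 and 1678. Leaving out 1 array gave 1041 to 1310 lower and 1315 to 1584 higher. Of the pathway genes, 5 were lower and 0 higher with unequal variances, 1 was higher with the covariate, and 10 to 14 were lower and 8 to 10 higher with 1 array left out. The shift of *Lef1* against the other factors was -1.29 to -1.07 with 1 array left out, each with an exact permutation p of 0.057, the smallest that 3 against 4 arrays can give. A median of the other factors could not be told from their mean, since only 2 were measured.

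Knockout and wild-type arrays share replicate numbers, but deviations from the genotype means of same-numbered arrays correlated only at -0.040 to 0.042, and 0 of 4 knockout arrays correlated best with their own number. With the replicate number as a block, 4 genes were lower and 0 higher (*Apc* adjusted p = 0.072, *Tcf7l1* 0.085), and the *Lef1* shift was -1.19 (exact sign-flip permutation p = 0.12, the smallest possible with 4 pairs).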
